A study of Homo sapiens with 14 samples.

Results

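The elements described here are solo long terminal repeats (LTRs) of the HERVH family, that is, integrants whose repeat name was LTR7, LTR7B, LTR7C or LTR7Y and did not include the internal HERVH sequence (HERVH-int). They were chosen by name alone, with no use of their reads. A copy called solo here may still lie beside internal HERVH sequence. Of these members, 173 (12.3%) lay within 10 kb of an HERVH-int integrant. The rule found 1410 of the 4570939 TE integrants in the tables: 680 LTR7, 459 LTR7B, 205 LTR7C, 61 LTR7Y and 5 that named more than 1 of these types. The 1373 integrants that named an LTR7 type together with HERVH-int, called proviral below, were used only for comparison.

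HERVH is an endogenous retrovirus that entered the primate germline and left copies across the genome. An LTR carries the promoter, enhancer and polyadenylation signal of the virus, and recombination between the LTRs that flank a provirus removes the internal genes and leaves a solo LTR. LTR7-driven HERVH transcripts are a known feature of human pluripotent cells. KRAB zinc-finger proteins recruit the co-repressor TRIM28 and the histone methyltransferase SETDB1 to many such elements, and the KRAB domain of dCAS9-KRAB uses the same route at sites chosen by a guide RNA.

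Bulk poly(A) RNA-seq was made from 12 libraries of the human embryonic stem cell (hESC) line H9. The 2 hESC libraries were undifferentiated, and their labels name no transgene. The 3 endoderm control libraries (DE_ctl) came from cells that expressed dCAS9-KRAB without a guide RNA (sgRNA) and were kept 3 days in 100 ng/ml Activin A, with the WNT activator CHIR-99021 at 5 µM on day 1 and 0.5 µM on day 2. The 3 endoderm CRISPRi libraries (DE_CRISPRi) were treated the same way and also carried an sgRNA against LTR5 elements, which are LTRs of another family, HERVK. The 2 foregut control (FG_ctl) and 2 foregut CRISPRi (FG_CRISPRi) libraries had 3 further days of foregut differentiation. The hESC and endoderm control libraries therefore differ in dCAS9-KRAB as well as in differentiation, and these cannot be told apart. The paper states that RNA-seq had 2 or more replicates that were biologically independent, and the titles add only replicate numbers. The p-values measure the spread between these libraries, all of 1 cell line. Bulk RNA also cannot separate fewer cells of a type from less RNA per cell.

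The foregut libraries were grouped by their titles, because their other labels describe hESC (FG_ctl) or endoderm without sgRNA (FG_CRISPRi). Transcripts of TTR, a liver and foregut marker, were at 0 in the 8 hESC and endoderm libraries and at a mean of 1751 (FG_ctl) and 1683 (FG_CRISPRi) RPM (reads per 1000000 reads counted in genes, the unit of all levels here). Of 5 foregut markers tested, TTR and FOXA1 passed as higher in FG_ctl than in DE_ctl and none as lower. HNF4A (log2 fold change 1.13, edgeR adjusted p = 0.144), ONECUT1 (1.25, 0.205) and HHEX (-0.60, 0.147) did not pass. Summed over 6 definitive endoderm markers, levels were 24.3 to 35.0 in hESC, 5147 to 5829 in DE_ctl and 602 to 657 in FG_ctl, and SOX17 and GATA6 were at 0 in hESC. All 6 passed the test as higher in DE_ctl than in hESC, and so did 5 of 5 mesoderm markers, whose sum was 1.82 to 1.83 in hESC, 95.9 to 253 in DE_ctl and 40.4 to 55.3 in FG_ctl, where all 5 passed as lower than in DE_ctl. Summed fibroblast or feeder markers were at 214 to 235 in hESC, 260 to 301 in DE_ctl and 407 to 477 in FG_ctl. These markers went different ways. In the same order, mean THY1 was at 174, 31.6 and 25.2 and COL1A1 at 8.65, 26.6 and 239. COL1A2 was at 41.7, 229 and 177, and DCN at 0.129, 0.0204 and 0.808. Summed neural markers were at 7.69 to 11.4, 1.93 to 2.97 and 0 to 0.350. The part of such cells in the differences below was not tested. LTR5_Hs and LTR5B, at which the sgRNA was aimed, and the related name LTR5A were checked next. In DE_CRISPRi against DE_ctl, LTR5_Hs was at 9.84 to 13.6 against 16.5 to 18.5, LTR5B at 1.26 to 3.31 against 4.88 to 5.43, and LTR5A at 85.0 to 107 against 36.9 to 60.1. In FG_CRISPRi against FG_ctl, LTR5_Hs was at 4.43 to 10.9 against 8.16 to 9.04, LTR5B at 4.28 to 5.4 against 9.04 to 12.4, and LTR5A at 59.2 to 61.4 against 53.6 to 56.0. None of these differences passed the test (edgeR adjusted p = 1 for each in endoderm, and 0.850, 0.272 and 0.874 in foregut).

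The foregut libraries also stood apart in how counts were distributed. Gene reads per library ran from 11583063 to 37152434. In the 8 hESC and endoderm libraries, 46.5 to 65.0% of all integrants with reads had exactly 1 read, whereas this share was 4.2 to 5.4% in the 4 foregut libraries. The median integrant with reads had 1 to 2 reads in the former and 12 to 31 in the latter. Solo LTR7 integrants followed the same split, with 62 to 117 members read per hESC or endoderm library and 21 to 44 per foregut library. Mitochondrial genes took 17.6 to 34.7% of gene reads in foregut and 8.30 to 25.5% elsewhere. Low counts are thus scarce in the foregut files, so a 0 there says less than its depth would give, and results are given with and without these libraries. How this split arose was not tested, and for foregut against endoderm it cannot be told apart from differentiation.

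**Figure D1:**
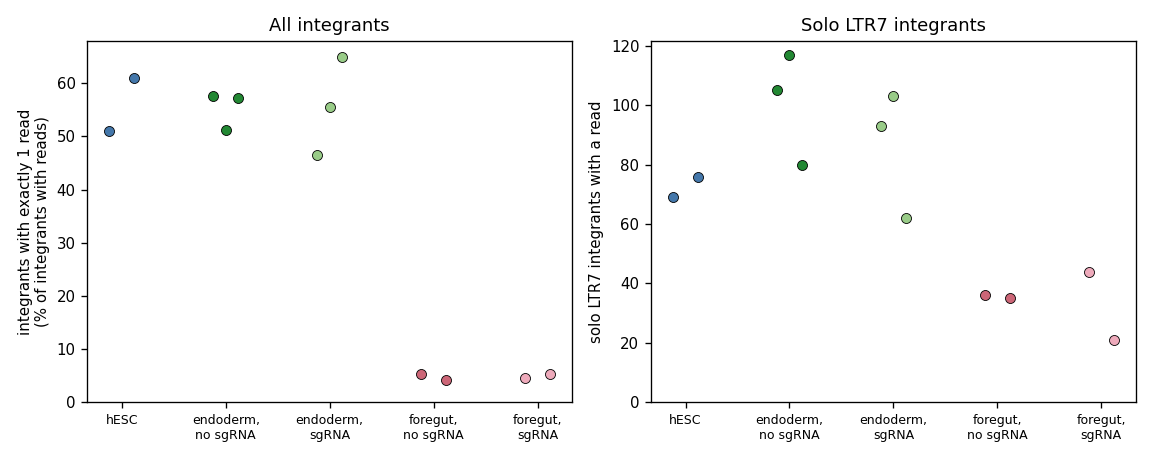
Left, the percentage of all integrants with reads that had exactly 1 read, and right, the number of solo LTR7 integrants with a read, for each of the 12 libraries (points) by group. The foregut points lie at 4.2 to 5.4% on the left and at 21 to 44 members on the right, below every hESC and endoderm library.

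The sequences below show the 2 LTR7B copies with most reads, which led the foregut results, each as its last 220 bases on the strand of the LTR (GRCh37/hg19). The strand was inferred by alignment to the LTR7 at chr21, read so that its TATAAA precedes its AATAAA. Capitals mark matches to a KLF motif (GGGTGNGG) or a GATA motif (AGATAA) in either orientation.
LTR7B, chr19:53202568-53202787, minus strand: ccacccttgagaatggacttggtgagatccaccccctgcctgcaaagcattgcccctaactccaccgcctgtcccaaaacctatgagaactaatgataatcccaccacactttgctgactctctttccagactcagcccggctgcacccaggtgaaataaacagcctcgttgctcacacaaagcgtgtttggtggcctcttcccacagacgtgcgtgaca
LTR7B, chr1:160955464-160955683, minus strand: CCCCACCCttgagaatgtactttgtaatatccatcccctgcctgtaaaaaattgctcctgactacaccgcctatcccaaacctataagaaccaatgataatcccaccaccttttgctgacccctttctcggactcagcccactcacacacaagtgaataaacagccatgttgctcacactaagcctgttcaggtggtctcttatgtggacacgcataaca

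In this stretch the chr1 copy holds 1 KLF match and the chr19 copy none, and neither holds AGATAA. Over its full length the chr1 copy holds 3 KLF matches and the chr19 copy 2, and neither holds AGATAA. Both stretches hold TGATAA, letters that were not searched. The median identity to the chr21 copy was 91.1% over 390 aligned bases for 670 LTR7, 89.2% over 377 for 61 LTR7Y and 83.8% over 306 for 199 LTR7C members. The 450 LTR7B members aligned over a median of only 131.5 bases, at 87.9%.

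KLF letters were frequent in all 4 types. Among 602 LTR7, 328 LTR7B, 144 LTR7C and 40 LTR7Y members of 274 to 467 bases, on either strand, 81.7% of LTR7, 92.4% of LTR7B, 52.1% of LTR7C and 97.5% of LTR7Y held GGGTGNGG, against 8.7% of 94860 other LTR and MER integrants in the same length range. GATA letters (AGATAA) differed between the types, with 27.1% of LTR7 and 28.5% of LTR7C but 1.5% of LTR7B and 7.5% of LTR7Y, against 26.6% of the others. Only AGATAA was searched, so other letters of GATA sites, such as TGATAA, are not in these shares. The octamer of POU factors (ATGCAAAT) was in at most 0.2% of any type against 6.0%, and the SOX core (AACAAT) in 4.0 to 13.2% against 23.5%. FOXA letters (TGTTTAC) were in 0 to 3.5% against 6.7%, T-box letters (AGGTGTGA) in 0 to 0.7% against 1.4%, and TCF letters (CTTTGAT) in 0.6 to 5.0% against 5.4%. On the inferred strand, TATAAA was in 86.5% of LTR7, 72.2% of LTR7C and 85.0% of LTR7Y but in 1.5% of LTR7B, while AATAAA was in 50.5%, 43.1%, 82.5% and 86.3% of them. A match is a description of letters and not of binding.

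Most solo copies had no read in these libraries. A read in any of the 12 libraries was found for 284 of 1410 members (20.1%), against 1035 of 1373 proviral integrants (75.4%). By type, 182 of 680 LTR7 (26.8%), 55 of 459 LTR7B (12.0%), 25 of 205 LTR7C (12.2%) and 20 of 61 LTR7Y (32.8%) had a read. These shares cover only uniquely mapped reads. Of the members with reads, 91 had a single read over all libraries and 24 had 100 or more, and the 5 with most reads held 40.8% of the 10188 member reads.

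Of 655 members inside a gene, 143 (21.8%) had reads, against 141 outside (18.7% of them). Of those inside a gene of 1 strand, 63 of 225 on the strand of the gene (28.0%) and 69 of 383 on the opposite strand (18.0%) had reads, and whether counting used strand is not stated. Over all members, inside and outside genes, 173 (12.3%) lay within 10 kb of an HERVH-int integrant and held 9.07% of member reads. GATA letters were in 42.0% of 162 LTR7 members with a read and in 21.6% of 440 without, and in 34.5% of the 29 read in all DE_ctl libraries. The shares with and without a read were 2.22% of 45 and 1.41% of 283 for LTR7B, 35.3% of 17 and 27.6% of 127 for LTR7C, and 5.88% of 17 and 8.70% of 23 for LTR7Y.

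Only 8 members were read in all 12 libraries, and 208 were read in hESC or endoderm libraries and in no foregut library. Over all integrants, 9126 to 27718 had reads per foregut library, against 30360 to 74440 per hESC or endoderm library. The share of all integrants with either pattern was not computed, so these counts do not set the members apart. Reads in all 3 DE_ctl libraries and in neither hESC library were found for 16 members (5.63% of the 284 with a read, against 0.945% of 254621 integrants with a read), of which 11 were LTR7, 3 LTR7C and 1 LTR7B. The opposite pattern, both hESC libraries and no DE_ctl library, was found for 4 members, all of them LTR7 (1.41%, against 2.76% of integrants with a read).

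Levels per type were taken as RPM, summed over members that overlap no exon. Solo LTR7 had 13.8 and 15.2 in hESC, 20.3, 25.8 and 25.2 in DE_ctl, 31.5, 22.7 and 19.9 in DE_CRISPRi, 12.99 and 11.1 in FG_ctl, and 24.1 and 17.8 in FG_CRISPRi. All DE_ctl libraries were above both hESC libraries and both FG_ctl libraries. Solo LTR7B had 2.12 and 1.68 in hESC, 3.20, 3.90 and 2.75 in DE_ctl, 3.96, 3.46 and 2.94 in DE_CRISPRi, 21.6 and 16.8 in FG_ctl, and 18.2 and 12.9 in FG_CRISPRi. Every foregut library was above every other library. Solo LTR7C had 0.170 and 0.222 in hESC, 1.78, 1.95 and 1.40 in DE_ctl, 1.80, 2.34 and 2.16 in DE_CRISPRi, 2.21 and 1.64 in FG_ctl, and 2.39 and 2.55 in FG_CRISPRi. Both hESC libraries were the lowest. Solo LTR7Y had 0.382 and 0.355 in hESC, 0.254, 0.418 and 0.366 in DE_ctl, 0.240, 0.866 and 1.04 in DE_CRISPRi, 1.59 and 1.45 in FG_ctl, and 3.99 and 0.480 in FG_CRISPRi. The LTR7Y sums rest on few reads, as little as 4 in 1 library and at most 127.

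**Figure D2:**
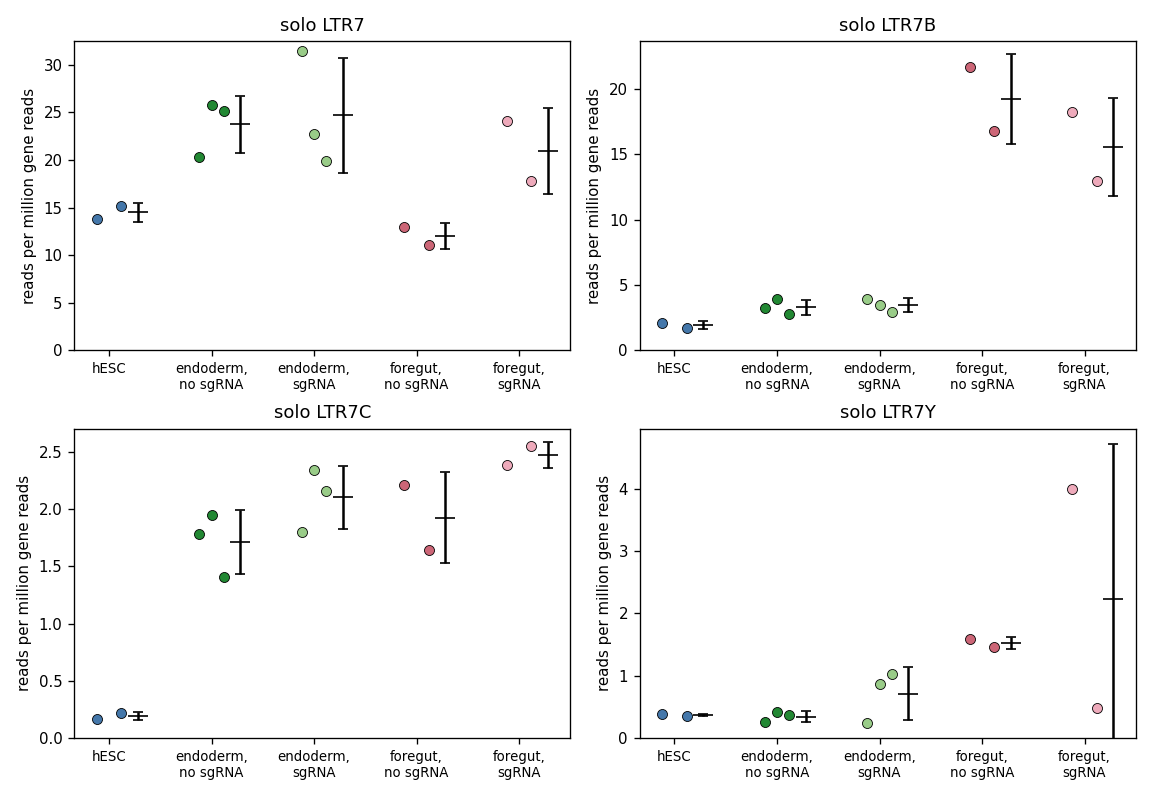
RPM summed over the solo members of each type that overlap no exon, for each library (points) by group, with the group mean and SD (bars to the right of the points, the LTR7Y foregut sgRNA bar reaching below the axis at 0). LTR7 has its highest group means in endoderm, although 1 foregut sgRNA library, at 24.1, lies among the endoderm points. LTR7B is highest in foregut, and LTR7C is lowest in hESC, at 0.170 and 0.222.

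The first comparison asked which solo LTRs were read more or less after 3 days of endodermal differentiation. Solo LTR7C rose, from 0.196 ± 0.037 (SD, n = 2) in hESC to 1.71 ± 0.28 (n = 3) in DE_ctl, a log2 fold change of 3.14 with SE 0.71 (edgeR quasi-likelihood test, adjusted p = 0.0119), and 4.69% of the 1088 names tested passed. The other types did not pass: LTR7 differed by 0.75 (SE 0.36, adjusted p = 0.372), LTR7B by 0.82 (SE 0.41, adjusted p = 0.406) and LTR7Y by -0.05 (SE 0.99, adjusted p = 0.991). The median over all names was -0.28. Fitted without the foregut libraries, LTR7C was at 3.16 (adjusted p = 6.85e-05, with 12.5% of 1066 names called) and LTR7 at 0.79 (adjusted p = 0.133).

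The LTR7C rise was not called with limma voom, with exon-overlapping members kept (1.42, adjusted p = 0.134), without members near HERVH-int (2.11, adjusted p = 0.218), or without hESC replicate 1 (3.02, adjusted p = 0.234), hESC replicate 2 (3.29, adjusted p = 0.123) or DE_ctl replicate 2 (3.04, adjusted p = 0.0571). A pair of copies on chromosome 19, chosen after their values were seen, held 63.1% of the DE_ctl sum. The LTR7C at chr19:22049828-22050193, between genes, 14901 bases upstream of the ZNF43 start and 3133 bases from an HERVH-int integrant, had 0 and 0 reads in hESC, 17, 12 and 7 in DE_ctl, 17, 18 and 15 in DE_CRISPRi and 0 in all 4 foregut libraries. The LTR7C at chr19:43061508-43061942, inside CEACAM1 (a cell adhesion receptor) and on the strand opposite to it, had 0 and 0 reads in hESC, 8, 8 and 10 in DE_ctl, 3, 5 and 2 in DE_CRISPRi, 0 and 19 in FG_ctl and 0 and 0 in FG_CRISPRi. Endoderm libraries thus had reads from both copies where hESC had none, at least 9.47-fold and 7.11-fold higher in DE_ctl against a floor of 3 reads over both hESC libraries, a floor that covers counting error only. Without the pair, LTR7C was at 0.196 ± 0.037 in hESC and 0.632 ± 0.345 in DE_ctl. Both copies had passed as higher without the foregut libraries, so leaving them out lowers DE_ctl by selection.

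Single integrants were tested where 1 library had at least 3 reads, which left 121 of the 1410 members. In simulations of the fit of all libraries, moderate changes of single integrants were rarely called. A member that did not pass, here or below, may therefore still have changed. In DE_ctl against hESC, 2 of the 121 passed (adjusted p under 0.05 and a fold over 2), both higher, against 0.304% of all 82694 integrants, and 6 were under an unadjusted p of 0.05. The median log2 fold change was 0 among the members and 0 among all integrants. Without the foregut libraries 9 of 86 members passed (10.5%), 8 of them higher, against 3.02% of 40219 integrants. DESeq2 with all 12 libraries called none of the members named below in any comparison, and called 4 of all integrants in this one.

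The LTR7 at chr21:45761420-45761830, on the minus strand between genes, lies 2135 bases upstream of the start of CFAP410, a gene for a cilium protein transcribed from the same strand. It had 0 and 0 reads in hESC, 57, 105 and 83 in DE_ctl, 43, 78 and 35 in DE_CRISPRi, 88 and 162 in FG_ctl and 368 and 76 in FG_CRISPRi. It was thus read in every library of the differentiated cells and in no hESC library. Its level was 4.28 ± 1.20 RPM (SD, n = 3) in DE_ctl, at least 65.8-fold above the floor of 3 reads over both hESC libraries (edgeR adjusted p = 6.22e-09).

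CFAP410 itself rose in the same comparison, from 3.90 ± 0.82 (n = 2) in hESC to 17.9 ± 1.2 (n = 3) in DE_ctl, a log2 fold change of 2.24 (SE 0.57, edgeR adjusted p = 0.00895), as 15.8% of 23403 genes did in either direction. In FG_ctl the gene was at 7.35 and 31.4.

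The LTR7 at chr6:153004080-153004529, on the plus strand between genes, lies 14503 bases upstream of MYCT1. It had 0 and 3 reads in hESC, 75, 125 and 99 in DE_ctl, 187, 81 and 80 in DE_CRISPRi, 2 and 0 in FG_ctl and 0 and 0 in FG_CRISPRi. Its reads were thus nearly all from the 6 endoderm libraries. It rose from hESC to DE_ctl (edgeR adjusted p = 3.22e-05), with 299 reads against 3 and a ratio per gene read of 79.8 (exact 95% counting interval 27.0 to 389), from 0.067 ± 0.094 (n = 2) to 5.22 ± 1.22 (n = 3) RPM, although without hESC replicate 1 the adjusted p was 0.103. From DE_ctl to FG_ctl it fell (edgeR adjusted p = 6.76e-07).

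These copies on chromosomes 21 and 6 made up 40.0% of the solo LTR7 sum in DE_ctl. Without them, solo LTR7 was at 14.4 ± 0.9 (n = 2) in hESC and 14.3 ± 0.8 (n = 3) in DE_ctl. They were the only members that passed with all 12 libraries, both as higher, so leaving them out lowers DE_ctl by selection. The values without them therefore do not show that the rest was unchanged. Without the foregut libraries, 15 of 58 LTR7 members were under an unadjusted p of 0.05 (edgeR), 12 of them higher.

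An LTR7 read most in hESC lies at chr11:95913904-95914382, on the strand of MAML2 inside an intron of that gene, which encodes a co-activator of Notch signalling. It had 91 and 86 reads in hESC, 15, 25 and 12 in DE_ctl, 8, 26 and 6 in DE_CRISPRi, and 0 in all 4 foregut libraries. The hESC libraries were above all others. From hESC to DE_ctl it did not pass with all 12 libraries but fell by 2.04 without the foregut ones (SE 0.57, edgeR adjusted p = 0.0169).
MAML2 fell by 1.74 in the 12-library fit (SE 0.49, edgeR adjusted p = 0.0177), from 9.82 ± 2.11 to 2.83 ± 1.03 RPM. Unlike the LTR, MAML2 was read in FG_ctl, at 4.63 and 8.36.

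The other copies that passed only without the foregut libraries were all higher in DE_ctl. The LTR7 at chr14:87720206-87720640, between genes and 13071 bases from an HERVH-int integrant, had 0 and 0 reads in hESC, 17, 21 and 25 in DE_ctl, 41, 19 and 25 in DE_CRISPRi and 0 in all foregut libraries. That is at least 17.2-fold above the hESC floor (edgeR adjusted p = 6.65e-07 without foregut, 0.103 with it). The rest were the pair of LTR7C copies, LTR7 copies at chr9:35151220-35151593 and chr2:116936377-116936822, both within 10 kb of an HERVH-int integrant, and a copy at chr3:75446977-75447644 that names more than 1 type. Their reads in DE_ctl were 20, 24 and 6 (chr9), 6, 4 and 8 (chr2) and 2, 20 and 3 (chr3), against 0 and 2, 0 and 0, and 0 and 0 in hESC.

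The second comparison asked what changed between endoderm and foregut, and here the split in low counts and differentiation cannot be told apart. Solo LTR7B rose by 2.57 on the log2 scale (SE 0.39, edgeR adjusted p = 0.000157), from 3.28 ± 0.58 (n = 3) in DE_ctl to 19.2 ± 3.4 (n = 2) in FG_ctl, where 23.2% of names passed and the median name was at 0.68. LTR7 was at -0.96 (SE 0.36, adjusted p = 0.0647), and passed with a replicate block (-1.05, adjusted p = 0.0491), DESeq2 (adjusted p = 0.0405), limma voom (0.0434) and only these 2 groups (0.0405). LTR7C was at 0.19 (SE 0.58, adjusted p = 0.853) and LTR7Y at 2.13 (SE 0.94, adjusted p = 0.108). Scaled to TE reads in place of gene reads, LTR7B was at 0.66 (adjusted p = 0.337), LTR7 at -2.83 (adjusted p = 0.000383) and LTR7C at -1.72 (adjusted p = 0.0552).

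The LTR7B sum was led by 2 copies that together held 76.1% of it in FG_ctl. Both were read in all 12 libraries and are among the 8 members with most reads. Because low counts are scarce in the foregut files, picking copies by such reads favours those high there. This choice cannot by itself show a rise in foregut. The LTR7B at chr19:53202568-53202982, inside the lncRNA gene ENSG00000288953, had 22 and 15 reads in hESC, 27, 36 and 20 in DE_ctl, 19, 26 and 9 in DE_CRISPRi, 294 and 314 in FG_ctl and 79 and 142 in FG_CRISPRi. All foregut libraries were above all others, but the difference from DE_ctl, 2.63 (SE 0.84), did not pass (edgeR adjusted p = 0.103), and passed when only these 2 groups were fitted (adjusted p = 0.000372).
The LTR7B at chr1:160955464-160955842, between genes and 30865 bases upstream of ITLN2, had 5 and 2 reads in hESC, 11, 12 and 5 in DE_ctl, 15, 13 and 11 in DE_CRISPRi, 237 and 168 in FG_ctl and 301 and 90 in FG_CRISPRi. Its level again separated foregut from all other libraries, at 5.89 ± 1.94 (n = 2) in FG_ctl against 0.474 ± 0.146 (n = 3) in DE_ctl (log2 fold change 3.65, SE 0.91, edgeR adjusted p = 0.00709), but it did not pass without FG_ctl replicate 1 (adjusted p = 0.0967) or without DE_ctl replicate 1, 2 or 3 (0.0670, 0.0917 and 0.173). Without both copies, LTR7B was still at 4.59 ± 1.09 in FG_ctl and 1.39 ± 0.25 in DE_ctl.

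Among the 121 members, 5 passed in FG_ctl against DE_ctl (1 higher, 4 lower), against 1.44% of all integrants, and 14 were under an unadjusted p of 0.05. The median was -1.98 for the members and 0 for all integrants. The rise was the chr1 LTR7B. The falls were the LTR7 copies on chromosomes 6, 11 and 14 described above and an LTR7 at chr12:73209892-73210370.
This chr12 copy lies between genes and only 1072 bases from an HERVH-int integrant, and had 35 and 55 reads in hESC, 25, 31 and 21 in DE_ctl, 14, 21 and 6 in DE_CRISPRi and 0 in all foregut libraries. The adjusted p for its fall was 0.00705, that of the chr11 copy 0.00666 and that of the chr14 copy 0.0152 (edgeR). No fold is given for these 3 or for the chr6 copy, because low counts are scarce in the foregut files. None of the chr11, chr12 and chr14 copies passed without FG_ctl replicate 1 or without FG_ctl replicate 2 (adjusted p from 0.177 to 0.327), and the chr14 copy also did not pass without DE_ctl replicate 1, 2 or 3 (0.0514, 0.0563 and 0.107).

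A pair of LTR7 copies lies inside SUCLA2, a gene for a subunit of a mitochondrial ligase. The copy at chr13:48578735-48579143, in an intron and on the strand of the gene, had 1 and 5 reads in hESC, 3, 6 and 24 in DE_ctl, 9, 5 and 7 in DE_CRISPRi, 83 and 75 in FG_ctl and 87 and 13 in FG_CRISPRi. Its foregut control libraries were above all hESC and endoderm ones, a difference of 1.85 (SE 1.21) that did not pass the test (edgeR adjusted p = 0.768). SUCLA2 fell by 1.95 on the log2 scale (SE 0.28, edgeR adjusted p = 3.39e-05, as 26.6% of genes did in either direction), from 66.1 ± 16.8 (n = 3) to 17.05 ± 3.49 (n = 2) RPM. The copy at chr13:48575922-48576325 overlaps an exon and was left out of the main tests. It had 58 and 36 reads in FG_ctl against 3, 9 and 7 in DE_ctl. With exon-overlapping members kept, its difference of 2.06 (SE 1.17) did not pass (edgeR adjusted p = 0.753).

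The LTR7Y with most reads, 38.2% of all LTR7Y reads, lies at chr10:99098672-99099113, inside the lncRNA gene ENSG00000225850 and 4186 bases upstream of FRAT2, a regulator of WNT signalling. It had 8 and 8 reads in hESC, 1, 4 and 4 in DE_ctl, 3, 6 and 9 in DE_CRISPRi, 24 and 16 in FG_ctl and 37 and 0 in FG_CRISPRi. The foregut CRISPRi libraries were thus both the highest and the lowest in count. No difference passed for this copy.

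A further 3 copies read in all 12 libraries, picked after their values were seen, had their highest group means in foregut. Because low counts are scarce in the foregut files, a copy read in every foregut library tends to be high there. This selection therefore cannot show a rise in foregut. The LTR7B at chr2:128570232-128570660, 1471 bases upstream of WDR33 (a subunit of the polyadenylation machinery), had 1, 2 and 3 reads in DE_ctl and 54 and 19 in FG_ctl. The LTR7C at chr1:212603265-212603736 had 1, 8 and 1 against 63 and 15, and the LTR7 at chrX:16598173-16598538 had 4, 9 and 2 against 26 and 49. None of the 3 passed the test.

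The proviral integrants were compared with the solo ones, both without exon-overlapping copies. The summed proviral level was 5212 ± 838 (n = 2) in hESC, 3856 ± 640 (n = 3) in DE_ctl, 3137 ± 191 (n = 3) in DE_CRISPRi, 93.6 ± 21.97 (n = 2) in FG_ctl and 113 ± 38 (n = 2) in FG_CRISPRi. The solo members were at 16.97 ± 0.70, 29.5 ± 3.7, 31.2 ± 5.8, 34.7 ± 5.3 and 41.2 ± 10.6 in the same order. Solo reads were therefore 0.300 to 0.356% of both kinds together in hESC, 0.598 to 0.948% in DE_ctl and 26.0 to 28.4% in FG_ctl. From DE_ctl to FG_ctl the solo sum held opposite differences, with mean LTR7 at 23.8 and 12.0 and mean LTR7B at 3.28 and 19.2. The log2 ratio of solo to proviral reads was higher by 1.23 in DE_ctl than in hESC and by 5.60 in FG_ctl than in DE_ctl, with no overlap in either case. An exact two-sided permutation test gave p = 0.2 for each, the smallest that 3 against 2 libraries allow. HERVH-int itself fell by 5.32 from DE_ctl to FG_ctl (SE 0.46, edgeR adjusted p = 4.33e-07).

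The last comparisons asked whether solo LTR7 copies differed when an sgRNA against LTR5 was added to dCAS9-KRAB. In endoderm none of the 4 types passed, with log2 fold changes of 0.08 (SE 0.31) for LTR7, 0.09 (SE 0.36) for LTR7B, 0.29 (SE 0.53) for LTR7C and 0.99 (SE 0.89) for LTR7Y (edgeR adjusted p = 1 for each, 0% of names called). No member passed (0 of 121, against 0.00242% of all integrants), and none was under an unadjusted p of 0.05. Without the foregut libraries no member passed either (0 of 86, against 0.00995%), and 4 were under that p, all lower. DESeq2 and limma voom also called no member, and 0 of all 82694 integrants.
The 3 members with the smallest p, all LTR7, had few reads. The copy at chr16:124662-125025 inside RHBDF1, which encodes an inactive rhomboid protease, had 1, 3 and 4 reads in DE_ctl and 0 in all DE_CRISPRi libraries. The copies at chr4:170862496-170862873 (2, 3 and 2 reads in DE_ctl) and chr13:69771199-69771649 (4, 2 and 1) were also at 0 in DE_CRISPRi. These counts are at most 4 reads per library.

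In foregut none of the types passed either, with 0.86 (SE 0.39, adjusted p = 0.272) for LTR7, -0.25 (SE 0.42, adjusted p = 0.841) for LTR7B, 0.38 (SE 0.64, adjusted p = 0.841) for LTR7C and 0.72 (SE 1.004, adjusted p = 0.783) for LTR7Y, where 0.643% of names passed (edgeR). No member passed (0 of 121, against 0.0532%), and 5 were under an unadjusted p of 0.05, all higher. DESeq2 called no member and 0 of all integrants. With limma voom, 4 of 121 members were called, against 2704 of all 82694 integrants.
The smallest p-values belonged to copies with nearly all of their foregut reads in 1 FG_CRISPRi library. The LTR7 at chr6:77272017-77272409, inside lncRNA genes, had 0 and 0 reads in FG_ctl and 62 and 0 in FG_CRISPRi, and the LTR7 at chr1:233824519-233824950, 18 bases from an HERVH-int integrant, had 0 and 0 against 1 and 63. The LTR7 at chr11:5654391-5654458, a fragment of 68 bases inside TRIM34 and genes that overlap it, had 0 and 0 against 0 and 55. In each case the FG_CRISPRi libraries differed from each other. The LTR7 at chr19:47799967-47800414 in C5AR1, the gene of a complement receptor, overlaps an exon and was left out of the main tests. It had 0 and 34 reads in FG_ctl and 164 and 135 in FG_CRISPRi, so the groups did not overlap. With exon-overlapping members kept, its difference of 3.74 (SE 1.35) did not pass (edgeR adjusted p = 0.771). C5AR1 did not pass either (0.66, SE 1.01, edgeR adjusted p = 0.930).

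Listed genes of pluripotent and endodermal cells and of the KRAB pathway were compared in the same way. Of 10 pluripotency genes, 1 rose and 5 fell in DE_ctl against hESC (edgeR, adjusted p under 0.05 and a fold over 2), and 1 rose and 6 fell in FG_ctl against DE_ctl. POU5F1, the octamer-binding factor, was at 453 ± 236 (n = 2) in hESC and 734 ± 103 (n = 3) in DE_ctl, a difference that did not pass, and fell by 7.72 (SE 0.61, adjusted p = 5.3e-08) to foregut. Of 9 endodermal genes tested, 8 rose in DE_ctl, and in FG_ctl 2 rose and 6 fell. GATA6, an endodermal GATA factor, was at 0 in both hESC libraries and at a mean of 366 in DE_ctl. KLF4, whose motif resembles the KLF letters above, was at 2.48 ± 0.88 in hESC and did not pass in any of the 4 comparisons. TRIM28 was at 1209 ± 57 (n = 2) in hESC and 717 ± 83 (n = 3) in DE_ctl, a log2 fold change of -0.71 (SE 0.23, edgeR adjusted p = 0.0405) under the fold limit of 2, and SETDB1 passed in no comparison. With the sgRNA none of the listed genes passed in endoderm, where 0.00427% of all genes did, or in foregut, where 0.893% did.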

How the data were processed

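RNA of 12 H9 libraries (TruSeq Stranded mRNA) was measured as whole-number counts per gene and per TE integrant, which were deposited by the authors. The authors aligned reads with HISAT2 to hg19, kept uniquely mapped reads and counted genes and TEs jointly from an in-house Repbase annotation with fragments of an integrant merged; whether counting used strand is not stated. Exon overlap, genes and sequences were taken from GENCODE v44lift37 and GRCh37. Counts were fitted with edgeR 4.0.16 (quasi-likelihood, TMM factors of gene counts, all 12 libraries in 1 fit, features with 3 reads in a library, exon-overlapping integrants left out). Names were called at adjusted p under 0.05, integrants and genes also at a fold over 2, with Benjamini-Hochberg adjustment over the whole table. Scripts were tested on simulated data, where the fit of all 12 libraries rarely called moderate changes of single integrants. Alternatives were DESeq2 1.42.0, limma voom 3.58.1, other scalings, filters and samples. Named members were those with most reads (by type, and 8 overall), up to 5 called per direction and comparison with a mean of 0.5 RPM and groups that did not overlap, or otherwise the 3 with the smallest p; others are said to be chosen after their values were seen. The members and lists were chosen with earlier results of these data known. The result for 1 member and the sequences of some members are not reported here. The gastruloid files were not used here.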

Additional observations from a re-analysis of the deposited data

Results flagged for a closer look

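The LTR7 at chr16:124662-125025 inside RHBDF1 moved in opposite directions with the sgRNA in endoderm and in foregut in every library. It had 1, 3 and 4 reads in DE_ctl against 0 in each DE_CRISPRi library, and 0 and 0 reads in FG_ctl against 16 and 19 in FG_CRISPRi. The difference between the log2 effects (foregut minus endoderm) was 11.79 with SE 4.51, and did not pass (edgeR interaction term, adjusted p = 0.9998). It rests on groups at 0 and depends on the prior count.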

How the results depend on the processing

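Depth limits most members, since 91 of the 284 read had 1 read in all, and scarce low counts in the foregut files limit their zeros. Scaling to TE reads moved solo LTR7 in FG_ctl against DE_ctl to -2.83 (passing), LTR7B to 0.66 (not passing) and LTR7C to -1.72, and turned DE_CRISPRi against DE_ctl for LTR7 to -0.18 and LTR7B to -0.18 and foregut CRISPRi for LTR7C to -0.40. Keeping exon-overlapping members gave LTR7C 1.42 (not passing) for DE_ctl against hESC, 1.75 (passing) for FG_ctl against DE_ctl and -0.39 for foregut CRISPRi, and LTR7B -0.11 for endoderm CRISPRi. Far from HERVH-int, LTR7C was 2.11 in the first comparison (not passing) and -0.059 in endoderm CRISPRi. LTR7 in FG_ctl against DE_ctl passed with DESeq2 (-0.97), limma voom (-0.97) and only the 2 groups (-0.97), and LTR7Y passed with only the 2 groups (2.13). LTR7C in DE_ctl against hESC did not pass with limma voom (3.06).

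Members called in DE_ctl against hESC numbered 2, and 0 with DESeq2, 10 with limma voom and 4 with TE library sizes. They numbered 9 with only the 2 groups and 9 without the foregut libraries (added after the data were seen). Over all 82694 integrants the counts were 251, and 4 with DESeq2, 1376 with limma voom and 486 with TE library sizes. They were 1356 of 32490 with only the 2 groups and 1213 of 40219 without the foregut libraries. In FG_ctl against DE_ctl, called members numbered 5, and 0 with DESeq2, 38 with limma voom and 16 with TE library sizes. They numbered 2 when 1 read was enough and 9 with only the 2 groups. Over all 82694 integrants the counts were 1194, and 42 with DESeq2, 9299 with limma voom and 2455 with TE library sizes. They were 568 of 237983 when 1 read was enough and 2574 of 46118 with only the 2 groups. In foregut CRISPRi, called members numbered 0 (44 over all integrants), and 4 with limma voom (2704 over all) and 1 with TE library sizes (165 over all).

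Leaving out each library in turn gave these ranges. For DE_ctl against hESC, LTR7C ran from 3.02 to 3.29, LTR7Y from -0.21 to 0.16 and called members from 1 to 2. For FG_ctl against DE_ctl, LTR7C ran from -0.0835 to 0.50 and called members from 1 to 3. For endoderm CRISPRi, LTR7 ran from -0.22 to 0.23 and LTR7B from -0.10 to 0.23. For foregut CRISPRi, LTR7B ran from -0.72 to 0.11, LTR7Y from -1.80 to 1.58 and called members from 0 to 1.

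Same-numbered libraries correlated at -0.102 to 0.086 in their deviations from group means over genes, so the numbers were not taken as pairs. With a replicate block LTR7 in FG_ctl against DE_ctl was -1.05 and passed (adjusted p = 0.0491), and no other type sum or count of members changed its call. Crossing the numbers of the foregut libraries left 0 members called in foregut CRISPRi. The cause of these changes was not tested.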
